A study of Mus musculus with 2 samples.

Results

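The cells described are natural killer (NK) cells of mouse tumours, chosen by a rule on measured counts. A barcode was a member when it had at least 500 UMIs (unique molecular identifiers, each counting 1 captured RNA molecule), at least 200 genes and at most 20% of its UMIs from mitochondrially encoded genes, and when it met a set of gene limits. These were at least 2 summed UMIs of the NK receptor genes Ncr1, Klrb1c, Klre1, Klra8 and Klra4, no UMI of the T cell genes Cd3e, Cd3d, Cd8a and Cd4, fewer than 5 UMIs of Cdkn2a per 10000 and fewer than 10 summed UMIs of C1qa, C1qb and C1qc per 10000. The rule found 462 of 29048 barcodes, of which 82 were in the UBD overexpression library and 380 in the control library. MC38 cells, a line from a mouse colon carcinoma, were grown as subcutaneous tumours. Some of these tumours overexpressed UBD (ubiquitin D, also called FAT10, a ubiquitin-like protein modifier), the others were controls, and dissociated cells of each were run as a single droplet library. No source used here states the construct, the mouse strain, sex and age, or how many tumours lie behind each library. With 1 library per group no test between the groups can be made, so no p-value is given. Ranges in parentheses after a level, ratio or difference of shares are 95% intervals that cover counting error only; list medians and some further values have none. A difference between these libraries cannot be told apart from a difference between any 2 tumours. Ubd itself had 190 UMIs (1.15 CPM, meaning UMIs per 1000000 UMIs of the summed barcodes, 0.990 to 1.32) in the UBD tumour barcodes and 43 UMIs (0.322 CPM, 0.233 to 0.434) in the control ones, and none in the NK cells described in depth. Whether RNA of the construct ends as the mouse gene does, and so would be counted, is not given, so this low level does not check the label.

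NK cells are innate lymphocytes that kill stressed, infected or transformed cells by releasing perforin and granzymes stored in cytotoxic granules. They read targets through activating receptors such as NKp46 and NKG2D and through inhibitory receptors of the Ly49 and NKG2A families that bind MHC class I, and they carry no rearranged antigen receptor. In tumours they are also known as a source of interferon gamma and of the chemokines XCL1 and CCL5, and they respond to interleukin 15, interleukin 12 and type I interferon.

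The label held for most, but not all, of the members. Members could enter on Klra4 alone, and 34 UBD members (41.5%) and 32 control members (8.42%) had no UMI of the other 4 genes of the rule. These Klra4-only members were deep barcodes, with a median of 27544 UMIs in the UBD library and 28628 in the control library. A UMI of Cdkn2a, which marks the tumour cells here, was present in 33 of 34 in the UBD library and 26 of 32 in the control library. No UMI of 8 further NK genes was found in 33 of 34 UBD and 24 of 32 control Klra4-only members, and Nkg7 was found in 1 and 7 of them. They held 86.5% of the members' UMIs in the UBD library and 35.0% in the control library. Klra4 had UMIs in tumour barcodes at large, in 18.1% of 8669 UBD and 10.9% of 6757 control barcodes with 5 or more UMIs of Cdkn2a per 10000. Between the 2 libraries, 11.2% of 7396 genes were higher and 6.41% lower in Klra4-only members, by the rule for calls given with the granule genes.

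Results are therefore given for the core members, which had at least 2 summed UMIs of Ncr1, Klrb1c and Klre1. There were 37 of these in the UBD library and 306 in the control library, and they were chosen as the set to describe after the values above were seen. The remaining 11 UBD and 42 control members met neither description; Nkg7 was found in 10 of 11 and 39 of 42 of them, at medians of 1651 UBD and 2917 control UMIs. Core members had a median of 2753 UMIs in the UBD library and 4432 in the control library, and 140725 and 1665682 UMIs in all, so that counting error was mostly that of the UBD library. Core barcodes over 10000 UMIs numbered 3 in the UBD library and 30 in the control library, and held 25.6% and 25.7% of these UMIs. Of these deep barcodes, 1 UBD and 7 control were predicted doublets. Summed levels in UBD core members thus lean on few barcodes. A list of 4 RNA quality genes (Gm42418, Lars2, Malat1 and Neat1) summed to 12613 CPM in UBD and 20408 CPM in control core members, and its part in the results was not tested. The leukocyte gene Ptprc was found in 33 of 37 UBD and 294 of 306 control core members, the granule membrane gene Nkg7 in 35 and 301, and the signalling adaptor Tyrobp in 35 and 302. Every core member held at least 4 UMIs of the 8 NK genes in the UBD library and at least 5 in the control library, with medians of 20 and 49. The genes that chose them stood at 120.8 CPM in UBD core members and 160.9 CPM in control core members for Ncr1, at 206 and 201 CPM for Klrb1c, and at 505 and 520 CPM for Klre1. These 3 levels describe the choice and are no finding.

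**Figure D1:**
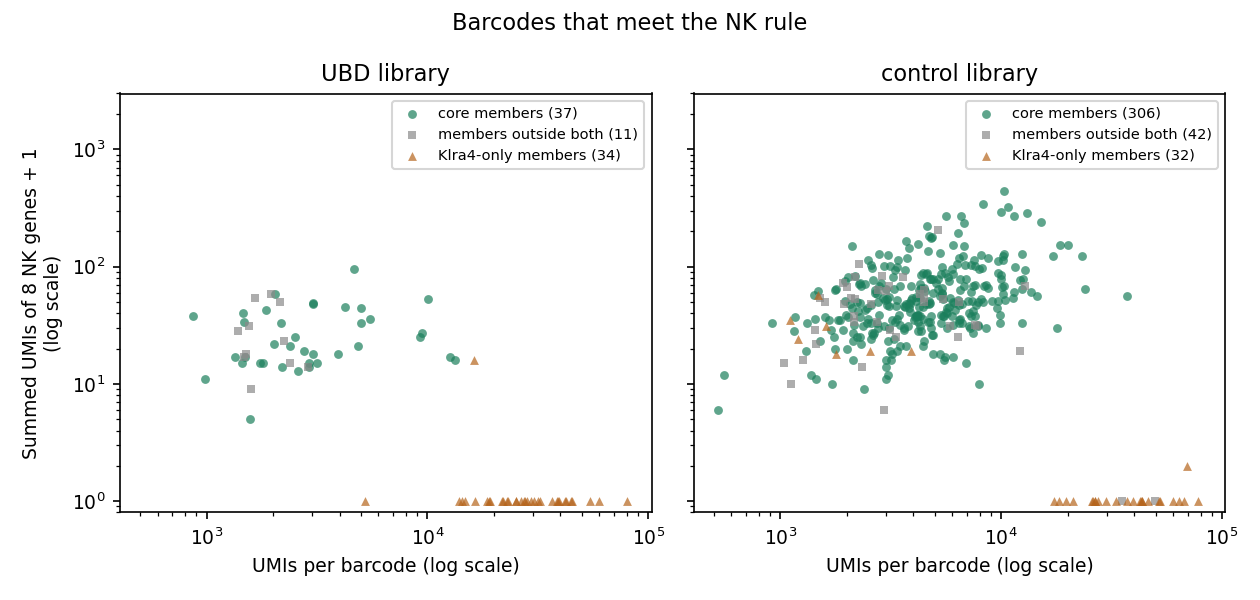
Each point is a barcode that met the rule, placed by its UMIs (x axis, log scale) and by its summed UMIs of 8 NK genes plus 1 (y axis, log scale), with the UBD library on the left and the control library on the right. Core members lie above the floor of the y axis in both libraries, while most of the 34 UBD and 32 control Klra4-only members lie on it at high depth.

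Of the T cell genes that the rule did not use, Trac, which encodes the constant part of the T cell receptor alpha chain, was found in 8.11% of UBD and 8.50% of control core members, against 76.6% of 329 UBD and 73.5% of 321 control T cells (barcodes with at least 2 summed UMIs of Cd3e, Cd3d and Cd3g and none of the rule genes). Cd3g, a chain of the T cell receptor complex, was found in 10.8% and 8.82% of core members, and in 93.6% and 92.5% of these T cells, which it helped to choose. Trbc1, a constant part of the beta chain, was found in 70.3% of UBD and 79.1% of control core members, and in 41.9% and 53.6% of T cells. The core members thus had Trbc1 without Trac or Cd3g in most cells of both libraries. Of the 12 T cell markers 5 were detected in UBD and 7 in control core members, at a summed 632 CPM in UBD and 781 CPM in control, and Cd6 was at 0 in both, as were the genes the rule bars.

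Values just inside and outside the limit describe its edge. Among barcodes that met the other limits, the 17 UBD barcodes with exactly 2 summed UMIs of Ncr1, Klrb1c and Klre1 had Gzma at 2702 CPM and Nkg7 at 1734 CPM, and the 29 with exactly 1 UMI had 2902 and 821 CPM. In the control library the 75 barcodes with 2 UMIs had Gzma at 5698 CPM and Nkg7 at 1986 CPM, and the 106 with 1 UMI had 2721 and 910 CPM. Barcodes with no UMI of the 3 genes had Gzma at 11.0 CPM in the UBD library and 47.2 CPM in the control library, so NK-type RNA continued just below the limit in both. The libraries shared 71 barcode sequences, and none of these was a member in both. Scrublet predicted 1 of 37 UBD and 17 of 306 control core members to be doublets, and these were kept.

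NK cells took a smaller share of the UBD library. Core members were 0.272% of 13619 passing UBD barcodes and 2.13% of 14353 passing control barcodes, a difference of −1.86 percentage points (95% interval −2.12 to −1.61). All members of the rule were 0.602% of UBD and 2.65% of control barcodes, a difference of −2.05 points (−2.34 to −1.76). T cells did not show such a gap, at 2.42% of UBD and 2.24% of control barcodes (difference 0.179 points, −0.174 to 0.535). Core members made up 10.1% of core members plus T cells in the UBD library and 48.8% in the control library, a difference of −38.7 points (−43.4 to −33.4). Among barcodes with Cdkn2a under the limit they were 0.747% in the UBD library and 4.03% in the control library. The gate depends on depth, and UBD barcodes other than tumour cells were not uniformly deeper: T cells had medians of 2457 UBD and 2886 control UMIs, and macrophages with C1q genes 5706 and 3610.5. When every barcode was first thinned to 1000 UMIs, 0.0830% of UBD and 0.668% of control barcodes met the core gate.

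Many cytotoxic granule genes were lower in UBD NK cells. Of the 19 granule and death ligand genes with at least 20 summed UMIs, 10 fell and none rose by at least 1.5-fold with an interval of the ratio that excluded 1, and the median log2 ratio of UBD to control was −0.92, or −0.60 with genes at 0 in the UBD library set to a bound of 3 UMIs. Over all 6464 genes tested in core members, 4.1% were lower and 4.42% were higher by the same rule, and the median was −0.07. These shares over all genes are the ones to set beside the counts of the other lists of core members below. Gzma, which encodes the trypsin-like granzyme A, summed to 369 UMIs or 2622 CPM in UBD core members, against 9968 UMIs or 5984 CPM in control core members, a ratio of 0.438 (0.394 to 0.486). It was found in 22 of 37 UBD and 249 of 306 control core members. No UMI of 5 further T cell receptor complex genes (Cd3g, Trac, Trbc1, Trbc2 and Trdc) was found in 6 UBD and 38 control core members. In these cells the ratio of Gzma was 1.08 with an interval of 0.86 to 1.34 that held 1, so no difference was detectable.

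Gzmb, which encodes granzyme B, the protease that cleaves caspases in the target cell, fell to 533 CPM in UBD core members, against 2534 CPM in control core members (75 and 4221 UMIs, ratio 0.210, 0.165 to 0.264). The pore-forming perforin gene Prf1 fell to 362 CPM in UBD core members, against 709 CPM in control core members (0.511, 0.378 to 0.677), but it had 6 and 71 UMIs in the 6 UBD and 38 control cells without those T cell receptor complex genes, a ratio of 1.03 (0.37 to 2.36). The granule proteoglycan gene Srgn fell to 1045 CPM in UBD core members, against 1582 CPM in control core members (0.660, 0.555 to 0.780), and Cst7, which encodes the inhibitor cystatin F, at a ratio of 0.530 (0.311 to 0.848). Of the enzymes that mature granzymes, the gene of cathepsin C, Ctsc, fell (4 and 131 UMIs, ratio 0.361, 0.0970 to 0.948). The serpin gene Serpinb9b fell too (2 and 169 UMIs, ratio 0.140, 0.0168 to 0.514).

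Not every granule gene passed the threshold. Gzmc, a granzyme gene of strongly stimulated killer cells in mice, stood at 3645 CPM in UBD and 2888 CPM in control core members (513 and 4810 UMIs, ratio 1.26, 1.15 to 1.38), and its ratio was 0.935 (0.837 to 1.04) without the UBD barcode that held 31.2% of its UMIs. In the 6 UBD and 38 control cells without those T cell receptor complex genes, however, Gzmc had 0 and 106 UMIs (ratio 0, 0 to 0.433). In the 31 UBD and 268 control cells with any of them it had 513 and 4704 UMIs (1.29, 1.17 to 1.41). Its neighbours in the granzyme cluster had 1 UMI in UBD and 367 in control core members for Gzmd (0.0323, 0.000814 to 0.181), 1 and 99 for Gzmf (0.120, 0.00300 to 0.682), and 7, all in 1 barcode, and 184 for Gzme (0.450, 0.179 to 0.947). Nkg7 stood at 1784 CPM in UBD and 2180 CPM in control core members (0.818, 0.717 to 0.930), and Ctsw, a cathepsin gene of killer lymphocytes, at 419 and 459 CPM (0.913, 0.688 to 1.19). The death ligand gene Fasl had 12 and 83 UMIs (1.71, 0.850 to 3.15) and Tnfsf10, which encodes TRAIL, 4 and 34 (1.39, 0.359 to 3.905), and neither passed the threshold.

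At equal depth Gzma, Gzmb, Prf1 and Nkg7 were found in a smaller share of UBD cells. With each core member thinned to 1000 UMIs, which left 35 UBD and 303 control cells and dropped 2 and 3, Gzma was found in 42.9% of UBD and 71.9% of control cells (59.5% and 81.4% unthinned), a difference of −29.1 points (−44.7 to −12.0). Gzmb was found in 25.7% of UBD and 68.0% of control cells (−42.3 points, −54.9 to −25.03), and Prf1 in 25.7% and 43.6% (−17.9 points, −30.7 to −0.6). At the same depth 0.3% of UBD and 1.8% of control C1q macrophages had a UMI of Gzma, and 1.26% and 2.28% of Gzmb. These shares only stand in for the level of free RNA, since no empty droplets were examined. Without thinning, Gzma was found in 0.577% of UBD and 8.12% of control tumour barcodes. The part of free RNA in the NK values was not tested. Among the thinned core members Nkg7 was found in 62.9% of UBD and 87.5% of control cells. Gzmc was found in 28.6% of UBD and 33.0% of control cells.

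**Figure D2:**
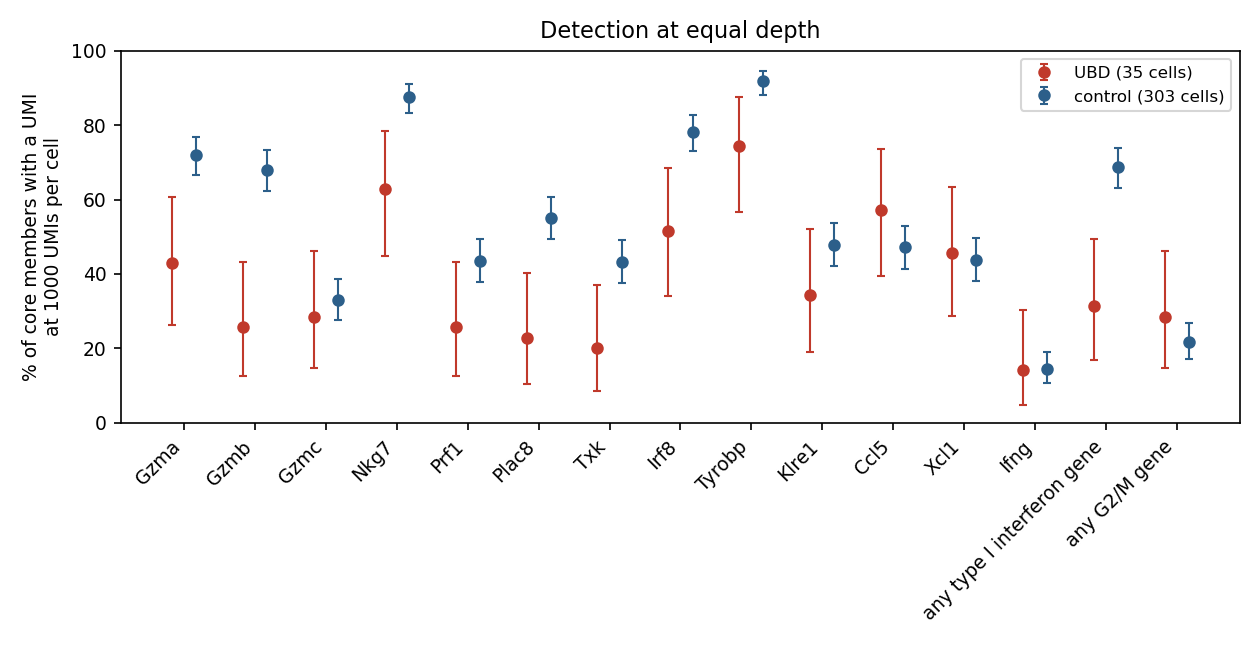
Points give the percentage of core members with a UMI of each gene (y axis) after thinning to 1000 UMIs per cell, red for 35 UBD cells and blue for 303 control cells, and bars are exact 95% binomial intervals. Gzma, Gzmb, Nkg7 and Irf8 lie lower in UBD cells with bars that do not meet, while Gzmc, Ccl5, Xcl1 and Ifng have bars that overlap.

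The granzymes were also counted together within cells, and these counts carry the shares above. Of the thinned cells 11 of 35 UBD (31.4%) and 33 of 303 control (10.9%) had none of Gzma, Gzmb and Gzmc, and 1 of 35 UBD and 54 of 303 control had all 3. In cells with Gzmc, Gzma was found in 2 and Gzmb in 3 of 10 in the UBD library, and Gzma in 60 and Gzmb in 82 of 100 in the control library. In cells without Gzmc, Gzma was found in 13 and Gzmb in 6 of 25 in the UBD library, and Gzma in 158 and Gzmb in 124 of 203 in the control library. Whether the granzymes combine differently in the libraries, beyond their own shares, was not tested. Within each library the cells with Gzmc had less Ccl5. In UBD cells it stood at 572 CPM with Gzmc and 7003 CPM without, and in control cells at 608 CPM with Gzmc and 4106 CPM without. Control cells with Gzmc also held nearly all of the Gzmd UMIs, 360 against 7 in those without. These classes were formed after the values were seen.

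Cytokine and chemokine genes were level or higher in UBD NK cells. Of 9 measured genes 4 rose (Ifng, Ccl4, Ccl5 and Ccl9) and none fell, with a median log2 ratio of 0.72. This median is the value of Ccl3, which did not stay above parity without its top UBD barcode. Of the 4 rises, only that of Ccl5 still passed the threshold without the gene's top UBD barcode. Ccl5, the chemokine RANTES that draws T cells and monocytes, stood at 4683 CPM in UBD and 2647 CPM in control core members (659 and 4409 UMIs, ratio 1.77, 1.63 to 1.92), and at a ratio of 1.60 (1.47 to 1.75) without its top UBD barcode. Ifng, the gene of interferon gamma, stood at 199 CPM in UBD and 108.7 CPM in control core members (28 and 181 UMIs, ratio 1.83, 1.18 to 2.74), and without the top barcode the ratio was 1.52 with an interval of 0.942 to 2.36 that held 1. At 1000 UMIs per cell Ccl5 was found in 57.1% of UBD and 47.2% of control cells (in 11.8% and 22.9% of macrophages) and Ifng in 14.3% and 14.5%, so no difference in the share of cells was detectable for either.

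Xcl1, a chemokine for cross-presenting dendritic cells, stood at 1741 CPM in UBD and 1237 CPM in control core members (1.41, 1.23 to 1.61), under the 1.5-fold limit. Ccl4, an inflammatory chemokine gene, passed with a ratio of 1.56 (1.24 to 1.93), but 30 of its 95 UBD UMIs came from a barcode of 870 UMIs, and without it the ratio was 1.07 (0.818 to 1.38). Ccl3, a close relative, had a ratio of 1.64 (0.889 to 2.83), and 0.772 (0.303 to 1.65) without its top barcode. The call of Ccl9 rested on a barcode that held 94.7% of its 19 UBD UMIs, and without it the ratio was 0.304 (0.00752 to 1.79). Tnf was at 0 in UBD core members and had 26 UMIs in control core members, a level below what 3 UBD UMIs would give, so no fold is stated.

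**Figure D3:**
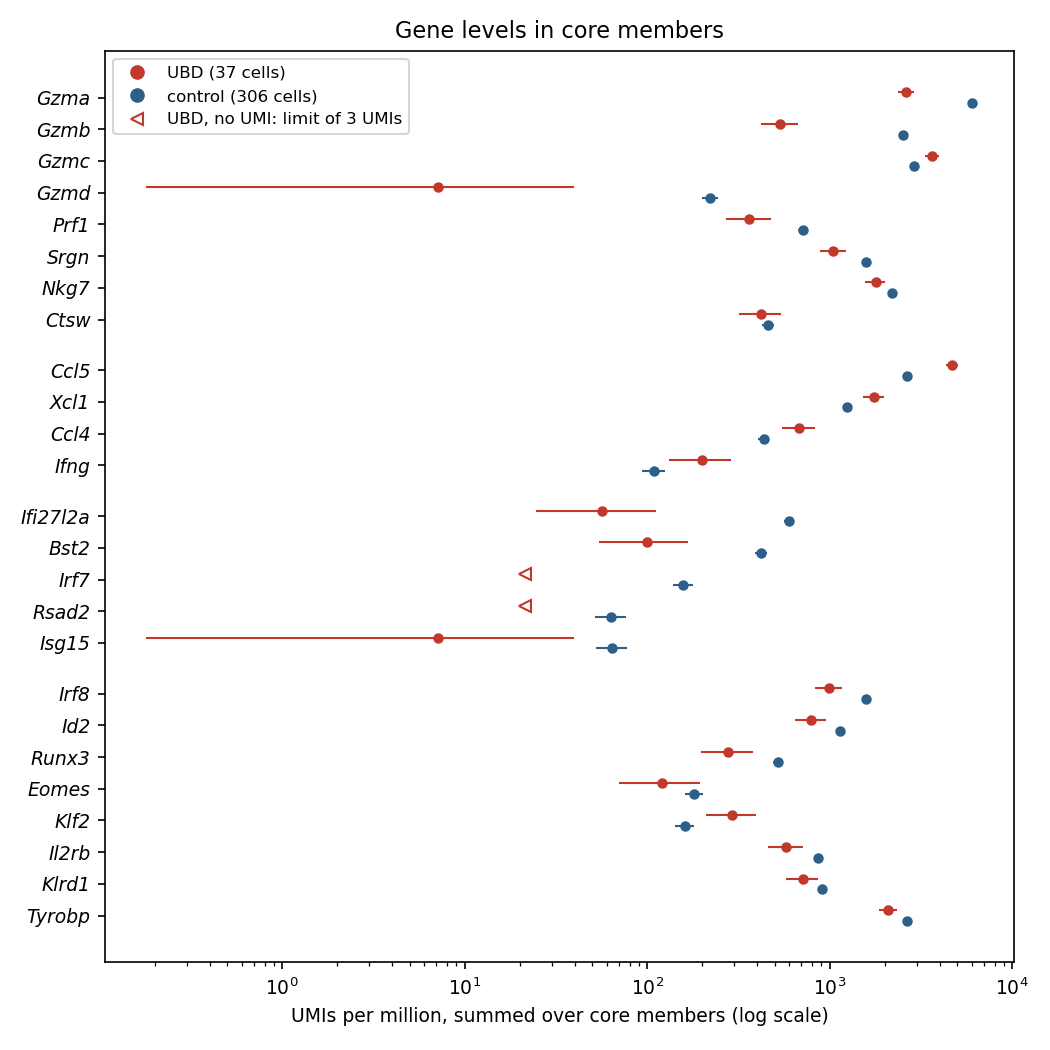
Levels in core members in CPM (x axis, log scale) are shown for granule, cytokine, interferon and regulator or receptor genes, red for the 37 UBD and blue for the 306 control cells, with exact 95% Poisson intervals; open triangles mark genes with no UBD UMI at the limit of 3 UMIs. Gzma, Gzmb, Prf1 and the interferon genes lie lower in UBD cells, and Ccl5, Ccl4 and Ifng lie higher.

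Few receptors that read target cells passed the threshold. Of 11 measured activating receptor genes 1 rose and 1 fell (median −0.15), and of 12 inhibitory receptor and checkpoint genes none rose and 1 fell (median −0.54). Klrk1, which encodes NKG2D, stood at 377 CPM in UBD and 408 CPM in control core members (0.923, 0.684 to 1.22). The gene of DNAM-1, Cd226, rose with few UMIs, 7 and 16, to a ratio of 5.18 (1.80 to 13.3), which was 3.17 (0.772 to 9.84) without its top barcode. The adhesion receptor gene Cd2 fell to 85.3 CPM in UBD core members, against 175 CPM in control core members (0.486, 0.248 to 0.863).

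Klrd1, which encodes CD94, the partner of the NKG2 chains, stood at 711 CPM in UBD and 908 CPM in control core members (0.783, 0.633 to 0.959). Its inhibitory partner NKG2A, encoded by Klrc1, had 163 and 108 CPM (1.51, 0.935 to 2.34). The Ly49 genes that the rule did not use were near parity, with ratios of 0.866 for Klra7 (0.625 to 1.17), 0.863 for Klra9 (0.526 to 1.34) and 1.10 for Klra3 (0.656 to 1.74). With thinning to 1000 UMIs, a mean of 0.829 Ly49 genes was found per UBD cell and 1.02 per control cell, and none in 17 of 35 UBD and 113 of 303 control cells; some of these genes belong to the rule. Ly49 genes are near-identical copies, so how counting split their reads is uncertain. The checkpoint gene Ctla4 fell (8 and 214 UMIs, ratio 0.442, 0.189 to 0.888). Lag3, another checkpoint gene, had 3 and 106 UMIs (0.335, 0.0680 to 1.01).

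Downstream of these receptors, none of the 18 adaptor and signalling genes measured rose and 2 fell (Lat and Lat2, median −0.46). Tyrobp, the adaptor DAP12 of activating Ly49 receptors, stood at 2082 CPM in UBD and 2654 CPM in control core members (0.785, 0.695 to 0.883). Fcer1g, the adaptor of NKp46 and of the Fc receptor, had a ratio of 0.839 (0.739 to 0.949), and Hcst, the adaptor DAP10 of NKG2D, 1.07 (0.792 to 1.42). The membrane linker gene Lat had no UMI in UBD and 47 in control core members. Its relative Lat2 had 11 and 253 UMIs (0.515, 0.254 to 0.937).

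Among 17 measured regulators of NK identity 1 rose and 3 fell, with a median of −0.37. Eomes, the T-box factor that sets NK cells apart from tissue ILC1, stood at 121 CPM in UBD and 181 CPM in control core members (17 and 301 UMIs, ratio 0.669, 0.384 to 1.09). Its relative Tbx21, the gene of T-bet, had a ratio of 0.910 (0.356 to 1.95), so neither differed beyond counting error. Irf8, a factor that mouse NK cells need in antiviral responses, fell to 988 CPM in UBD core members, against 1583 CPM in control core members (0.624, 0.522 to 0.740), and was found in 51.4% of UBD and 78.2% of control cells at equal depth, where 16.4% and 16.5% of macrophages had it. Runx3, a factor of cytotoxic lymphocytes, fell to 277 CPM in UBD core members, against 521 CPM in control core members (0.532, 0.376 to 0.733), and the Helios gene Ikzf2 had 5 and 158 UMIs (0.375, 0.120 to 0.893).

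Id2, which NK cells need to develop, stood at 789 CPM in UBD and 1133 CPM in control core members (0.696, 0.569 to 0.843), just short of the fold limit. Klf2, a factor of quiescence and tissue exit, rose to 291 CPM in UBD core members, against 160 CPM in control core members (1.82, 1.28 to 2.53), and its ratio was 1.36 (0.890 to 2.02) without the deep barcode that held 31.7% of its UMIs.

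Few genes of cytokine receptors and their signalling passed the threshold. None of 25 measured cytokine receptor and signalling genes rose and 4 fell, with a median of −0.43 (none of 26 and 3, with a median of −0.21, in all members but the Klra4-only ones). Il2rb, the receptor chain shared by interleukins 2 and 15, stood at 576 CPM in UBD and 868 CPM in control core members (0.663, 0.524 to 0.830), with a ratio of 1.23 (0.60 to 2.29) in the cells without T cell receptor complex genes. The survival gene Mcl1, which NK cells depend on, fell to 142 CPM in UBD core members, against 301 CPM in control core members (0.473, 0.286 to 0.738). Stat3, a signal transducer of cytokine receptors, had a ratio of 0.589 (0.409 to 0.824), and Tgfbr2, a receptor chain for TGF-beta, 0.348 (0.0935 to 0.912) on 4 and 136 UMIs.

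Of 19 trafficking and residency genes none rose and 3 fell, and their median was −0.05. Among those that fell, the early activation marker Cd69 had 6 and 217 UMIs in UBD and control core members (0.327, 0.119 to 0.724), and the chemokine receptor gene Ccr2 a ratio of 0.571 (0.340 to 0.903). Late maturation genes showed 1 of 6 lower, Ly6c2, at 85.3 CPM in UBD and 242 CPM in control core members (0.352, 0.181 to 0.623). Of 10 early maturation genes 2 fell, Emb (0.495, 0.348 to 0.685) and Kcnq1ot1 (0 and 55 UMIs), an antisense RNA whose reads cannot be told from those of its partner Kcnq1 where counting by strand is not stated, while Cd27 was near parity (1.02, 0.456 to 2.02). Ly6c2 and Ccr2 also stand in the macrophage and monocyte marker list. That list had 10 of 12 genes detected in UBD and 12 of 12 in control core members at a summed 668 and 905 CPM, with Adgre1 and Mrc1 at 0 in UBD core members, and its part in these values was not tested.

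ILC1, tissue lymphocytes that resemble NK cells, were looked for through 7 measured genes, of which 1 rose and none fell (median 0.48). The gene that rose, Tmem176a, had 15 and 68 UMIs (2.61, 1.39 to 4.61), and its ratio was 1.72 (0.755 to 3.47) without its top barcode. The residency integrin gene Itga1 had 1 and 42 UMIs (0.282, 0.00697 to 1.66), and the chemokine receptor gene Cxcr6 0 and 8, so these data hold too few UMIs to place ILC1 in the UBD library.

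The type I interferon response list was far lower in UBD NK cells. Of 19 measured genes 12 fell and none rose, 8 had no UMI in UBD core members, and the median log2 ratio was −3.18, or −1.99 with those genes set to the bound. The 20 genes of the list summed to 291 CPM in UBD and 1986 CPM in control core members. Irf7, the factor that amplifies type I interferon signals, had no UMI in 37 UBD cells and 262 UMIs (157 CPM) in 149 of 306 control cells. Set at the bound of 3 UBD UMIs, it would be 7.38-fold lower in UBD cells. Ifi27l2a fell to 56.8 CPM in UBD core members, against 601 CPM in control core members (8 and 1001 UMIs, ratio 0.0946, 0.0407 to 0.187). The tetherin gene Bst2 had 14 and 703 UMIs (0.236, 0.128 to 0.398). At 1000 UMIs per cell any gene of the list was found in 31.4% of UBD and 68.6% of control cells (−37.2 points, −51.0 to −19.8). It was found in 67.6% of UBD and 98.4% of control C1q macrophages at that depth, cells that express these genes themselves, so the level of free RNA is not known for this list and its part in the NK values was not tested.

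The promoters of this group are shown because so many of its genes moved together. In windows of 250 bases before the start, the motif GAAANNGAAA, the core of the interferon-stimulated response element, was found on either strand in 8 of the 14 list genes with a promoter in the RefSeq table for GRCm38.p6 (8 of 17 promoters, 47.1%), and in 2.98% of all 32851 promoters; matches may overlap. The following lines give 120 bases, from 160 to 41 bases before the start, of 4 genes chosen after their values were seen, 5′ to 3′ on the gene's strand, with bases of the motif or its reverse complement in capitals. Isg15 lies at chr4:156200859-156200978 (minus strand), Bst2 at chr8:71537513-71537632 (minus strand), Rsad2 at chr12:26456493-26456612 (minus strand) and Ifit3 at chr19:34583369-34583488 (plus strand).
Isg15: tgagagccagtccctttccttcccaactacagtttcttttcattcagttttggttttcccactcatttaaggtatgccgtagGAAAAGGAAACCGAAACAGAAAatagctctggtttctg
Bst2: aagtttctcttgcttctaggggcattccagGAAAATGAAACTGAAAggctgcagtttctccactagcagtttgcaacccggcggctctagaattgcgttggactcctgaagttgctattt
Rsad2: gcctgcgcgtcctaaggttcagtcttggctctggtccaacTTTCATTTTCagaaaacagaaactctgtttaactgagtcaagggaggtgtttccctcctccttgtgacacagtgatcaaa
Ifit3: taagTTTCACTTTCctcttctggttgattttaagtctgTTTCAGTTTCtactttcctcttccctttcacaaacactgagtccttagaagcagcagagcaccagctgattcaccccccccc
A match describes the letters and is not a measured site. The 4 windows shown all hold a match. The list was chosen as one of type I interferon response genes, so its share of promoters with a match describes that choice and is no result of these libraries. Beside these windows, Isg15, the gene of a ubiquitin-like modifier, had 1 UMI in UBD and 107 in control core members (0.111, 0.00278 to 0.630). Rsad2, the gene of the antiviral enzyme viperin, had 0 and 105 UMIs, and Ifit3, which encodes an interferon-induced antiviral protein, 0 and 59. The promoter window of Irf7 held no match.

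The same list was lower in the other cells of the UBD library. In T cells all 19 measured genes fell (median −3.06), in C1q macrophages 19 of 20 (median −3.30) and in tumour barcodes 20 of 20 (median −3.24). Of all genes tested, 8.8% fell in T cells, 18.8% in macrophages and 19.1% in tumour barcodes, and 8.55% of macrophage and 8.17% of tumour barcode genes rose. Granule genes had a median of −0.02 in T cells, with 5 of 21 higher and 5 lower where 6.64% of all genes were higher. The lower ones in T cells were Gzma, Gzmb, Gzmc, Gzmf and Serpinb9b, and the higher ones Gzmd, Gzme, Gzmg, Prf1 and Cst7. Granule genes were lower in other classes as well, with 15 of 21 lower and none higher in tumour barcodes (median −0.96) and 6 of 16 lower and 2 higher in C1q macrophages (median −0.36). Gzma and Gzmb were among the lower genes in each of these classes, so their fall was not particular to NK cells. NK-type cytokine genes rose in T cells too, 6 of 12 with 2 lower (median 0.60). Whether the changes in NK cells differ from those in the other classes was not tested, as there is 1 library per group.

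**Figure D4:**
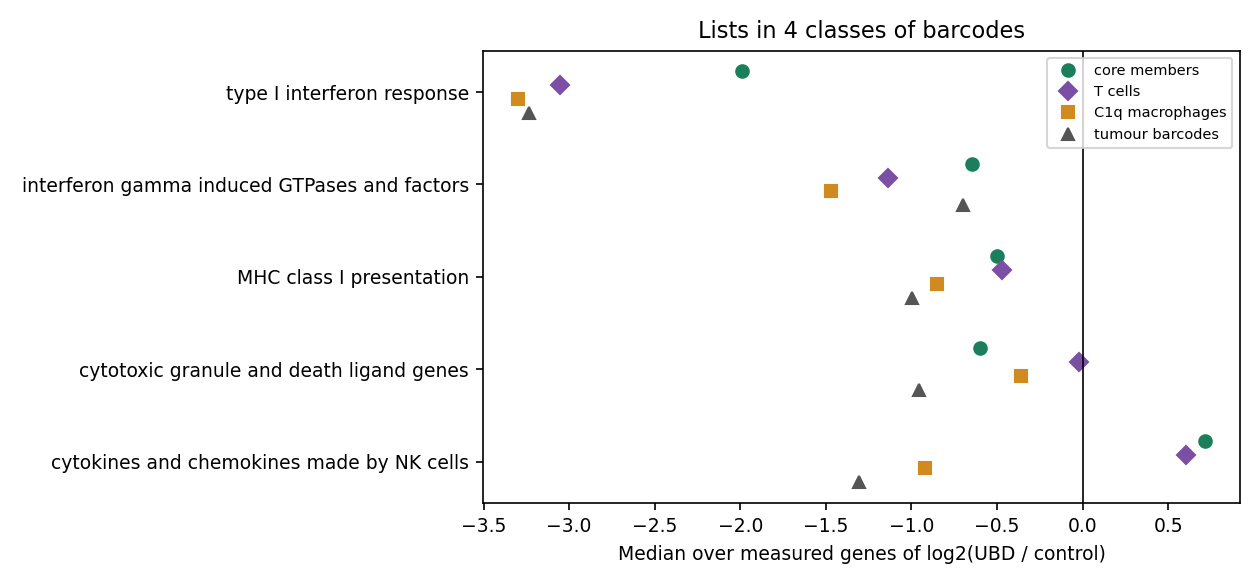
Points give the median log2 ratio of UBD to control (x axis) over the measured genes of 5 lists in core members, T cells, C1q macrophages and tumour barcodes, with genes at 0 set to the bound of 3 UMIs. The type I interferon list lies below −1.9 in all 4 classes, and the granule list lies at −0.60 in core members, −0.02 in T cells, −0.36 in C1q macrophages and −0.96 in tumour barcodes.

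Few interferon gamma induced genes passed the threshold. Of 11 measured GTPase and factor genes 2 fell (Gbp7 and Igtp) and none rose, with a median of −1.16, or −0.64 at the bound, and 1 of 12 fell in all members but the Klra4-only ones. Gbp7, a guanylate binding protein gene, had 3 and 121 UMIs (0.293, 0.0597 to 0.878), and the factor gene Irf1 8 and 148 (0.640, 0.271 to 1.29). MHC class I genes showed 4 of 16 lower (H2-Q4, H2-Q6, H2-T22 and H2-T23) and none higher, with a median of −0.55. The light chain gene B2m stood at 2338 CPM in UBD and 3062 CPM in control core members (0.763, 0.681 to 0.854) and the heavy chain gene H2-K1 at 1734 and 2592 CPM (0.669, 0.585 to 0.761), close to the fold limit.

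Some cell cycle genes were higher in UBD core members. Of 16 measured G1/S genes 6 rose and none fell (median 0.62), and of 18 G2/M genes 4 rose and none fell (median 0.38), where 4.42% of all genes were higher. In all members but the Klra4-only ones 2 of 16 G1/S genes rose and none fell (median 0.42), while 2 of 19 G2/M genes rose and 1 fell (median 0.018). Over all genes 3.35% were higher and 3.74% lower in that set, so the G2/M rise was not kept there. Tyms, which makes thymidylate, stood at 128 CPM in UBD and 61.2 CPM in control core members (2.09, 1.19 to 3.47), and Top2a, the topoisomerase of dividing cells, at 277 and 151 CPM (1.83, 1.27 to 2.57). Without the top barcode their ratios were 1.74 (0.919 to 3.05) and 1.42 (0.922 to 2.10). Mki67, a proliferation marker, had 13 and 121 UMIs (1.27, 0.658 to 2.26). At equal depth any G2/M gene was found in 28.6% of UBD and 21.8% of control cells, and any G1/S gene in 54.3% and 37.6%, a difference whose interval of −0.373 to 32.8 points held 0.

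Metabolic lists went in both directions. Oxidative phosphorylation genes showed 6 of 18 higher and none lower (median 0.54); Cox4i1, a subunit of the last enzyme of the respiratory chain, stood at 1713 CPM in UBD and 1132 CPM in control core members (1.51, 1.32 to 1.73), or at a ratio of 1.23 (1.05 to 1.43) without its top barcode. Hypoxia genes showed 3 of 10 lower (Ndrg1, Ero1l and Hif1a) and none higher (median −1.12, or −0.83 at the bound). The oxygen-sensing factor gene Hif1a fell to 121 CPM in UBD core members, against 246 CPM in control core members (0.492, 0.284 to 0.798). None of 20 ribosomal protein genes and none of 14 actin and migration genes passed the threshold, at medians of 0.11 and −0.16. Of 16 glycolysis genes 1 fell, of 18 activation genes 3 fell (Cd69, Icos and Egr1), and of 19 dissociation stress genes 2 rose and 4 fell. Of the 2 that rose, a deep barcode held 58.6% of the UBD UMIs of Fos and 33 UMIs of Dnajb1, without which the ratio of Dnajb1 was 0.572 (0.282 to 1.04).

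**Figure D5:**
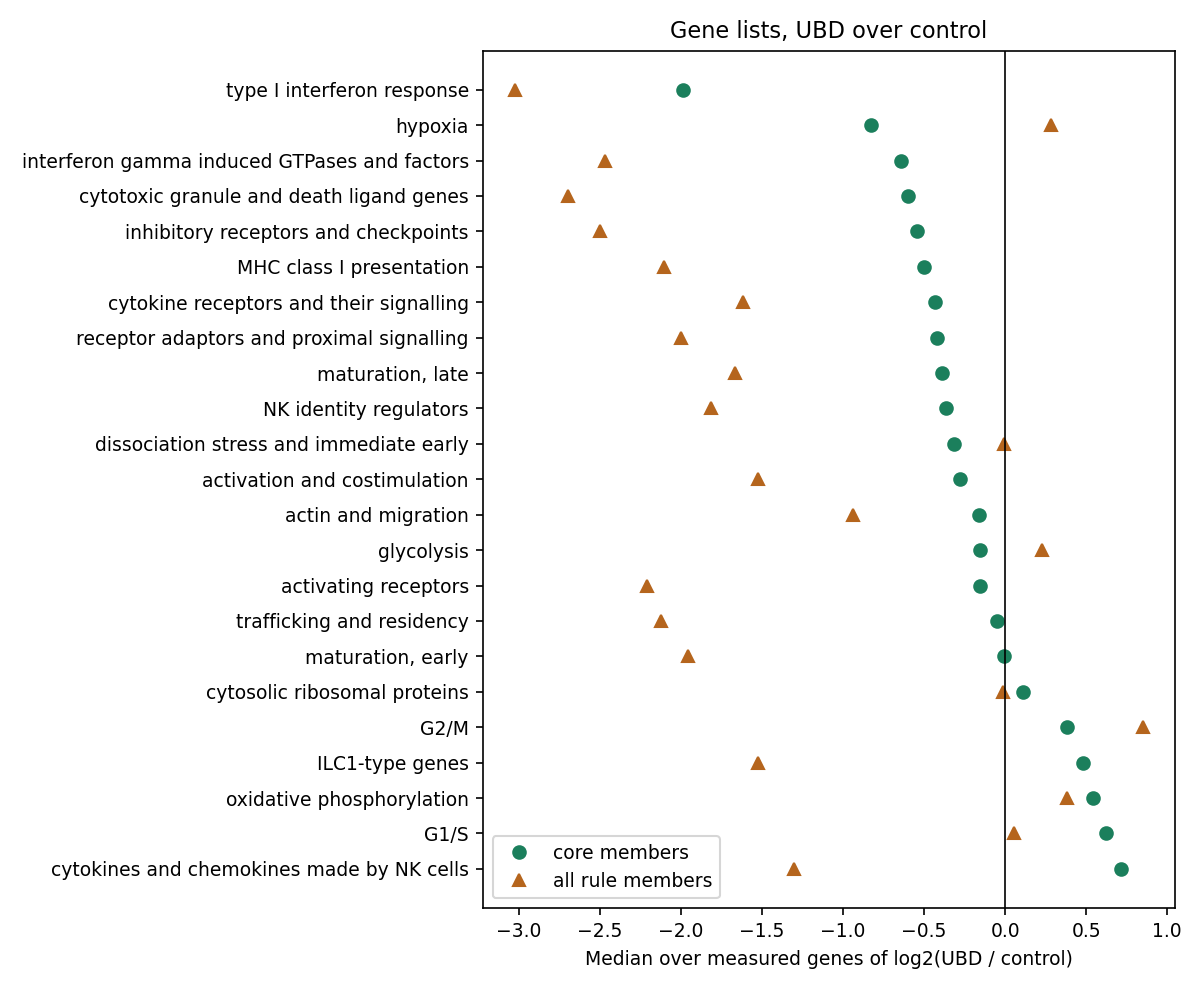
Points give the median log2 ratio of UBD to control (x axis) over the measured genes of each of 23 lists, green for core members and brown for all rule members, with genes at 0 set to the bound of 3 UMIs. In core members the type I interferon list lies lowest at −1.99 and the cytokine list highest at 0.72, the value of Ccl3. In all rule members every NK receptor and granule list lies below −1.5.

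Among genes of at least 50 CPM in a library and 50 summed UMIs, the 12 named for the lowest ratios included interferon-linked genes and a granzyme. Irf7, Etv3, Styk1 and Ifi44 were at 0 in UBD core members, the last 3 of them with 113, 99 and 89 control UMIs. Set at the floor of 3 UBD UMIs, these 3 would be 3.18-fold, 2.79-fold and 2.51-fold lower. The place among the 12 of the genes at 0 is not known. Of those with a UBD UMI, Gzmd had the lowest ratio, then the interferon-inducible genes Ifi209 (1 and 154 UMIs, ratio 0.0769, 0.00193 to 0.435), Ifi204 (1 and 151, 0.0784, 0.00197 to 0.443) and Trim30a (2 and 242, 0.0978, 0.0118 to 0.357), then Sertad1, Ube2h and Ubn1 with 1 UBD UMI each and Phf11b (2 and 202, 0.117, 0.0141 to 0.429). These intervals overlap, so the order is not resolved. Etv3 is a transcriptional repressor and Styk1 a kinase-like gene of NK cells. Another cell class had a higher level of 10 of these 12.

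Most of the largest rises were of genes with a higher level in another cell class. The genes were Ctsk, Acp5, Hexa, Ccl9, Nelfe, Cd63, Ctsz, Hist1h1d, Col6a3, Igfbp4, Rgs10 and Ccdc34, and 10 of these 12 were higher in another class. Ctsk and Acp5, the cathepsin K and acid phosphatase genes known from osteoclasts, had 132 and 156 UMIs in UBD core members, of which 95.5% and 94.9% lay in a single barcode of 13278 UMIs, and 7 and 19 UMIs in control core members. Without it the ratio of Acp5 was 5.50 (2.08 to 13.2). A fibroblast marker list summed to 639.5 CPM in UBD and 185.5 CPM in control core members with 7 of 7 detected in each, the 8 tumour markers to 114 and 115 CPM with 3 and 8 detected, and 7 neutrophil markers to 0 and 37.2 CPM. Their part in these rises was not tested. Of the genes on this list Nelfe, a factor of transcription pausing (4.16, 2.03 to 8.005), the linker histone gene Hist1h1d and Ccdc34 rested least on 1 barcode, with 15.4%, 21.4% and 27.3% of their UBD UMIs in the top one.

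Taken over all members of the rule, with the Klra4-only barcodes kept, the values describe mixed cells. Gzma stood at 450.6 CPM in UBD and 3846 CPM in control members (ratio 0.117, 0.107 to 0.128), Gzmb at 72.7 and 1564 CPM (0.0465, 0.0372 to 0.0575) and Nkg7 at a ratio of 0.187 (0.166 to 0.210). The granule list then showed 18 of 19 genes lower (median −2.69), and activating receptors 9 of 11 lower (median −2.21), where 14.5% of 9364 genes were lower and 22.6% higher and the median over all genes was 0.19. Cytokine genes turned round, with 2 of 11 higher and 7 lower (median −1.30), and Ifng and Ccl5 had ratios of 0.405 (0.269 to 0.591) and 0.502 (0.470 to 0.535). The type I interferon list showed 19 of 19 lower (median −3.36) and Irf7 6 and 341 UMIs (0.0430, 0.0157 to 0.0945). With only the Klra4-only members left out, 3.35% of 6986 genes were higher and 3.74% lower, close to the core members.

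Set against T cells of the same library, core members had higher Gzma, Xcl1, Tyrobp and Irf8 in both libraries. Gzmb and Prf1 were not higher in the UBD library. Gzma stood 26.7 times (21.5 to 33.5) above T cells in the UBD library and 22.3 times (20.01 to 25.004) in the control library. Xcl1 stood 24.1 times (18.6 to 31.5) above in the UBD library and 4.48 times (3.99 to 5.04) in the control library, Tyrobp 8.71 (7.34 to 10.3) and 16.2 times (14.1 to 18.8), and Irf8 5.55 (4.43 to 6.94) and 6.59 times (5.84 to 7.45). The ratio of Gzmb in core members to T cells was 0.370 (0.289 to 0.466) in the UBD library and 1.07 (1.02 to 1.13) in the control library. Prf1 had 0.988 (0.723 to 1.32) and 4.01 (3.47 to 4.66). Against all other passing barcodes the leading genes outside the rule included Klra9 and Gzmc, at 972 and 1244 times in the UBD library and 183 and 146 times in the control library. Of the 15 leading genes 12 also led for all rule members. That set holds the core members, so the overlap was largely given and is no finding.

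Because Trbc1 was so frequent, the values were also taken in core members with no UMI of Cd3g, Trac, Trbc1, Trbc2 or Trdc, of which there were 6 in the UBD library and 38 in the control library. They were shallower, at medians of 1682.5 UBD and 2747 control UMIs. Core members with 2 or more of the 5 genes had medians of 4382.5 and 4810.5. The subset thus differs in depth as well. In the few cells with none of the genes the ratio of UBD to control was 1.08 (0.86 to 1.34) for Gzma on 93 and 1052 UMIs, 0.40 (0.20 to 0.72) for Gzmb and 2.26 (1.93 to 2.64) for Ccl5. The summed type I interferon list had 3 and 395 UMIs, a ratio of 0.09 (0.02 to 0.27). In the 31 UBD and 268 control core members with any of the 5 genes, the ratios were 0.37 (0.32 to 0.41) for Gzma, 0.19 (0.15 to 0.25) for Gzmb, 1.64 (1.48 to 1.80) for Ccl5 and 0.15 (0.11 to 0.21) for the interferon list. The lower Gzmb and interferon values and the higher Ccl5 values were thus present in both subsets, and the lower Gzma value was not detectable in the 6 UBD cells.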

How the data were processed

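Both libraries were prepared with a 3' v3 droplet chemistry, per the labels' protocols, and the authors deposited UMI counts per gene and barcode, as 14158 UBD and 14890 control barcodes. Cell Ranger, STAR and mm10 are named in the submitters' processing notes, and the matrices come from software version 3.1.0, per the file headers. Which settings, gene annotation and limits for calling cells were used was not stated. Gene coordinates and names were matched to GENCODE vM21 (30934 of 31053 IDs).

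For each class and library, UMIs were summed over cells and divided by all UMIs of the sum (CPM). Levels carry exact Poisson intervals, ratios exact conditional binomial intervals, shares Clopper-Pearson intervals and differences of shares Newcombe-Wilson intervals, at 95%. A gene counted as higher or lower at 1.5-fold with an interval excluding 1, among genes with at least 20 summed UMIs. Shares of cells were taken after thinning to 1000 UMIs. The floor for a gene at 0 was 3 UMIs over the class. Doublets were predicted with Scrublet in scanpy 1.11.5 (expected rate 0.1), which marked 562 UBD (4.13%) and 530 control barcodes (3.69%), and were kept, since the rule does not name them. Python 3.11.15, numpy 2.4.6, scipy 1.17.1 and pandas 2.3.3 were used. The intervals and calls were run on simulated sums with Poisson counting error alone, the model they assume. That run leaves out spread between cells, so it does not check the calls against it.

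The members, the gene lists and the core gate were chosen with earlier results of these data known. Genes could be named from some lists in full (receptors, granule, cytokine, regulator, cytokine receptor, trafficking, maturation and ILC1-type genes), as the 4 members with most UMIs of other lists, as the 12 largest and smallest ratios at 50 CPM and 50 UMIs with at least 20% of the highest level in another class, and as the 15 leading genes. Members of other lists that passed the threshold are named by symbol in the counts. Some genes that the lists count are not reported by name here. Isg15, Rsad2, Ifit3 and the T cell receptor genes were chosen after their values were seen.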

Additional observations from a re-analysis of the deposited data

How the results depend on the processing

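No paired analysis was possible because each group is 1 library. In core members 465 of the values recomputed under other settings stayed inside the interval of the main value, or within 1.5-fold for counts of genes. A further 78 moved outside and 6 turned round, and over all members of the rule 403, 200 and 33 did. Turning round was counted only for differences of shares, for genes past the threshold and for list medians of at least 1.5-fold. Other values may have changed sign without being counted so. The share of core members stayed lower in UBD, by −1.46 points with 3 or more UMIs, −0.221 without any UMI of further T cell genes, −0.995 without Cdkn2a or C1q UMIs and −0.585 after thinning; over all members it was −0.208, −1.09 and −1.07 under the last 3 of these. Counts in core members were 131 lower with 3 or more UMIs, 42 higher and 42 lower without further T cell genes, 112 and 114 without Cdkn2a or C1q, and 136 and 190 higher with 100 summed UMIs and with a 2-fold limit. Without further T cell genes the core cytokine median was 1.18 and the log2 ratios were 0.11 for Gzma, 0.046 for Prf1, 0.30 for Il2rb and −0.090 for Atp5g1. Ccl9 had −0.29 without Cdkn2a or C1q and −1.48 without barcodes over 10000 UMIs.

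Over all members results changed with the barcodes let in, and also with the weight per cell, the scaling and the limits. Without further T cell genes, 844 genes were higher and 634 lower, and the cytokine and ILC1-type medians were −1.91 and 0.0097. Without Cdkn2a or C1q, 247 and 186 genes passed, the granule, cytokine and G2/M medians were −0.64, 0.72 and −0.58, and the log2 ratios of Gzmc, Ifng, Ccl5, Ccl4, Ccl3, Xcl1 and Ccl9 were 0.15, 0.54, 1.501, 0.97, 0.98, 0.19 and −0.65. With the core gate, 286 and 265 genes passed, the granule, cytokine and ILC1-type medians were −0.92, 0.72 and 0.48, and Gzmc, Ifng, Ccl5, Ccl4, Ccl3 and Xcl1 had 0.34, 0.87, 0.82, 0.64, 0.72 and 0.49. Without Klra4-only members, 234 and 261 genes passed, the activating, granule, cytokine and ILC1-type medians were 0.068, −0.83, 0.81 and 0.67, and the same 6 genes had 0.30, 0.96, 1.31, 0.79, 0.81 and 0.51. With equal weight per cell, the granule, cytokine and ILC1-type medians were −1.08, 0.36 and 0.039, and Ifng, Ccl5, Ccl4 and Ccl3 had 0.057, 0.36, 0.36 and 0.62. Genes higher numbered 1396 with median-of-ratios scaling, 1115 at 2-fold and 1161, with 745 lower, at 100 summed UMIs. The cause of these changes was not tested. The type I interferon median of core members had no finite value under settings that left most of its genes at 0. Depth limits the 37 UBD cells: a gene at 0 there may stand at up to 21.3 CPM. Excluding Klra4-only members, taking the core set in depth, leaving out deep barcodes and leaving out the top barcode of a gene were chosen after seeing the data.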

Other observations

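Plac8, a gene of myeloid and lymphoid cells that was picked after its values were seen, stood at 348 CPM in UBD and 1461 CPM in control core members (ratio 0.238, 0.176 to 0.316), and at 1000 UMIs per cell it was found in 22.9% of UBD and 55.1% of control cells. It was also found in 8.84% of UBD and 41.9% of control C1q macrophages at that depth, and the part of free RNA in its value was not tested. Txk, a TEC family kinase gene among the leading genes of the core members, had a ratio of 0.609 (0.441 to 0.823), and it was found in 7 of 35 UBD cells and in 43.2% of control cells, against 0.263% and 0.486% of macrophages. Rac2, a GTPase gene of leukocyte migration, went the other way in cells at this depth, 62.9% of UBD and 40.6% of control cells, while its ratio was 1.05 (0.842 to 1.31) and its shares at 2000 UMIs were 73.1% and 68.1%.

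Shares at other depths kept the order for the main granzymes. Gzma was found in 48.6% of UBD and 65.4% of control cells at 500 UMIs and in 46.2% and 76.3% at 2000 UMIs. At 500 UMIs per cell it summed to 89 UMIs in 37 UBD cells and 1189 in 306 control cells. At 2000 UMIs it summed to 144 in 26 UBD cells and 3921 in 279 control cells. The size of the Gzma difference thus changed with the depth and with the cells kept. Gzmb was found in 16.2% of UBD and 52.9% of control cells at 500 UMIs and in 42.3% and 80.6% at 2000 UMIs, where 26 UBD and 279 control cells remained.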
